A study of Mus musculus with 6 samples.

Results

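The forkhead (Fox) and Sox transcription factors were followed in whole embryonic mouse kidneys with and without Wnt4, a secreted signal without which, per the study's design text, renal vesicles (the precursors of the nephron) and what grows from them are missing. Members were taken by name: probe sets with 1 gene symbol of the form Fox plus a letter and a number, or Sox plus a number, with Foxd1, Foxc2 and Foxm1 set aside. This gave 36 of the 8251 genes named on the array, 23 forkhead and 13 Sox genes, read by 49 of 12422 probe sets. The RefSeq table lists 44 protein-coding forkhead and 19 Sox genes with names of this form. Genes such as Sox8, Sox9, Foxi1 and Foxo1 are among those not analysed here. Where several probe sets read 1 gene, the brightest on average stood for it. The rule goes by gene names, with no threshold on a measured value.

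RNA from kidneys at E14.5 was read on 6 one-colour Affymetrix MG_U74Av2 arrays. The 4 wild-type samples are labelled CD-1, and each pooled 2 kidneys. The 2 mutant samples are labelled strain 129 and carry the Wnt4tm1Amc allele, and each pooled 8 to 10 kidneys from 4 to 5 mutant embryos. The label does not give the zygosity of the allele, the protocol of every sample speaks of CD-1 matings, and how many embryos each wild-type pool drew on was not stated in the labels. Strain label, pool size and genotype cannot be told apart in these groups. Wnt4 itself had signals of 829, 739, 946 and 699 on the wild-type arrays (replicates 1 to 4). Both arrays labelled mutant lay far below these, at 74.2 and 34.5.

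Forkhead factors bind DNA through a winged-helix domain, and several of them open closed chromatin or pass on insulin and growth factor signals. Sox factors bind the minor groove through an HMG box, a domain shared with the Tcf and Lef factors of Wnt signalling, and fall into lettered subgroups of close relatives. In the developing kidney, members of both families mark the stroma, the nephron progenitors, the ureteric epithelium and the vessels. SoxC genes (Sox4, Sox11) support progenitor cells, SoxF genes (Sox7, Sox17, Sox18) shape endothelium, and SoxE genes such as Sox10 mark neural crest.

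In the Wnt4 mutant, 2 of the 36 genes rose, Foxa1 and Sox4, and 0 fell. Of the 36, 20 had enough signal to be tested and 16 did not, the requirement being 2 or more arrays on which the signal exceeded that array's 40th percentile. Among the 20, 18 did not pass. Differences are mutant minus wild type on the log2(signal + 16) scale, which understates changes at low signals, and a gene passed when limma's Benjamini-Hochberg adjusted p over all 7981 tested probe sets was under 0.05. Over all 6081 genes tested the same rule called 11.5%, with 5.13% higher and 6.35% lower, so 2 of 20 is close to the background share. Counted over probe sets, 4.65% were higher and 6.11% lower. At an unadjusted p under 0.05 the count was also 2, against 28.2% of all genes. In whole kidneys a change in the number of cells of a type and a change in RNA per cell cannot be told apart.

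The 10 tested forkhead genes had a median difference of 0.06 and the 10 tested Sox genes one of 0.31, beside 0.01 over all genes tested. Of the 20, 12 had positive and 8 negative differences, against 51.4% positive among all genes tested. Both mutant signals exceeded every wild-type signal for 3 genes (Foxa1, Sox4 and Sox7), as for 19.3% of all genes tested, and were under every one for 1 (Sox13), as for 19.9%. Over all genes tested, 39.1% had groups that did not overlap in one direction or the other.

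**Figure D1:**
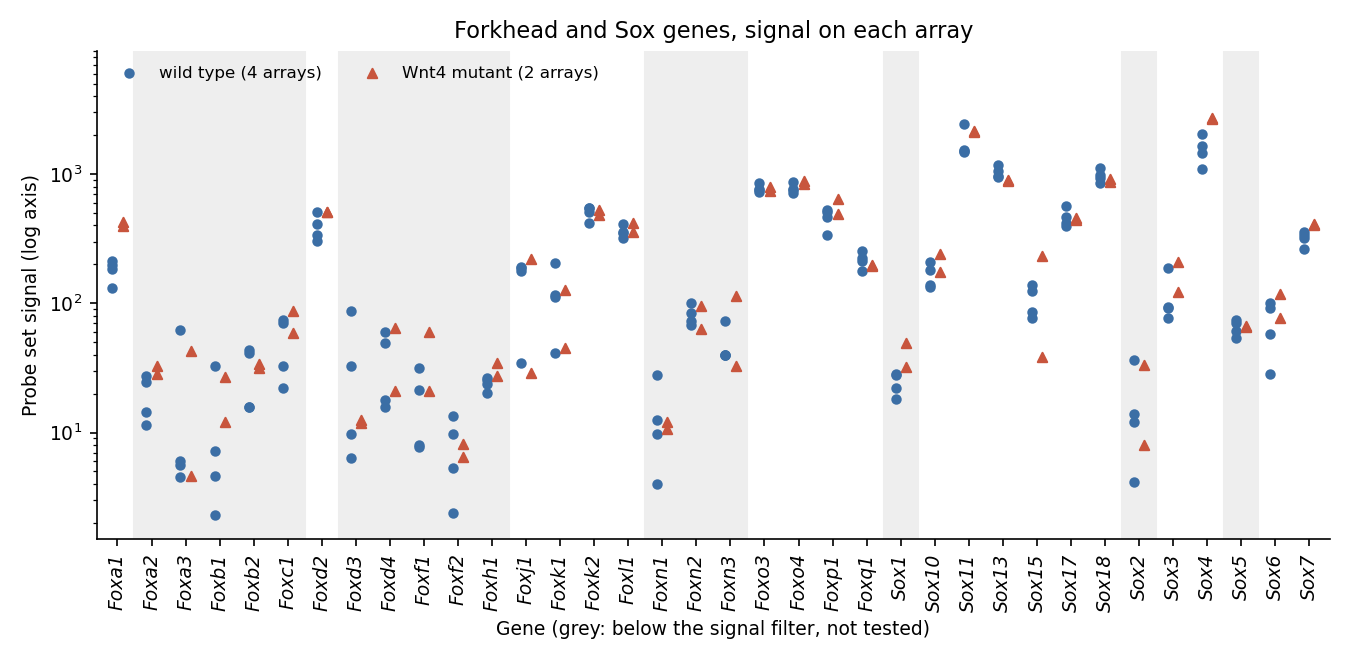
Probe set signal (log axis) of the 36 forkhead and Sox genes on each of the 4 wild-type arrays (circles) and 2 Wnt4 mutant arrays (triangles), with the 16 untested genes shaded grey. Only for Foxa1, Sox4 and Sox7 among the 20 tested genes do both triangles sit above every circle.

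Foxa1, a pioneer factor that opens chromatin in endodermal and urogenital epithelia, had the largest difference of the 20 tested genes. The signals were 185, 131, 197 and 212 on wild-type arrays 1 to 4 against 398 and 422 on the mutant arrays. Both mutant arrays exceeded every wild-type array. The means were 181 ± 35.1 (SD, n = 4) and 410 ± 16.8 (SD, n = 2), giving 1.13 ± 0.21 as the log2 difference with its SE (adjusted p = 0.0110 by limma), which is 2.19-fold on that scale, with a 95% interval of 0.65 to 1.61. The call was lost when either mutant array was left out, with 1.17 (adjusted p = 0.0875) without mutant replicate 1 and 1.09 (0.117) without mutant replicate 2.

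Foxa1 is expressed in the ureteric epithelium and its derivatives. Among 10 measured ureteric bud markers, 9 were tested, of which 2 rose (the keratins Krt8 and Krt18, by 0.36 and 0.40), 3 fell (the transcription factor Lhx1 by 1.76, Calb1 by 0.61 and Wfdc2 by 0.41), while 4 missed the threshold and the median stood at -0.04. Lhx1 also belongs to the list of renal vesicle genes. Ret, the marker not tested, was below the signal filter. It read 30.5 to 104 in the wild type and 8.08 and 8.61 in the mutant. The 2 rises were lost when either mutant array, wild-type replicate 1 or wild-type replicate 2 was left out. Without wild-type replicate 3 or 4, 1 of them was left, and without mutant replicate 2 there was 1 fall. The summed signal of the 10 markers ran from 7672 to 8453 in the wild type and from 7872 to 7988 in the mutant, with overlap. This sum adds markers that rose to markers that fell. Whether the amount of ureteric epithelium had a part in the Foxa1 result was not tested.

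Markers of other cell types moved between the groups too. The renal vesicle and tubule list had 11 of 12 tested genes lower, with summed signals of 5626 to 7581 in the wild type and 852 to 1003 in the mutant. In the renal stroma list, 9 of 11 tested genes rose and 0 fell (14154 to 15487 against 29617 to 30066), Foxd1 among them. In the skeletal muscle list, 6 of 10 tested genes rose (1556 to 2302 against 5824 to 6292), or 2 without either mutant array, while Myf5, Myf6, Tnnt3, Myh3, Chrna1 and Chrng were below the signal filter. Their part in the rises of Foxa1 and Sox4 was not tested. Nephron progenitor markers had 2 of 10 tested genes lower, erythroid markers 3 of 8 higher and macrophage markers 1 of 8 higher. Gonad and adrenal markers had 0 of 5 in either direction by limma (2 at an unadjusted p under 0.05). The erythroid rises were the globins Hba-x, Hbb-y and Hbb-bh1. The 5 that did not pass ran from Gata1 at -0.60 and Alas2 at -0.46, through Hba-a1 at -0.0, to Klf1 at 0.31 and Slc4a1 at 0.81.

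For Foxa1 and Sox4, the genes that passed, the 250 bases before the RefSeq start are shown. Sox11, the closest relative of Sox4 on the array, is shown too. Matches to the letters searched for each family are in capitals. The forkhead letters searched were TGTTTAC and the Sox letters ACAAAG, on both strands. Other forms were not searched, and the letters do not tell a Sox factor from another HMG-box factor. The sequences are from RefSeq on GRCm38.p6, each on the minus strand and written 5′ to 3′ towards the gene: Foxa1 at chr12:57546112-57546361, Sox4 at chr13:28953700-28953949 and Sox11 at chr12:27342719-27342968.
Foxa1: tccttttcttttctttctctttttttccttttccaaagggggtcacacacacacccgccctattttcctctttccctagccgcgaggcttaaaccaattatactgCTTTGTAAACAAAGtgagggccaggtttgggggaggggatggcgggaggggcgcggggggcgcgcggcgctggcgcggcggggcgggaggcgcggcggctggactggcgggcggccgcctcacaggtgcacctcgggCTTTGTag
Sox4: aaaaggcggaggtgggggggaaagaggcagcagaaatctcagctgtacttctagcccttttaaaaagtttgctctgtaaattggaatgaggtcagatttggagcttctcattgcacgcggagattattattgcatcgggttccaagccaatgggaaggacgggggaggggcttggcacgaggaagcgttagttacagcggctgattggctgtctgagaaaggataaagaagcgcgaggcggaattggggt
Sox11: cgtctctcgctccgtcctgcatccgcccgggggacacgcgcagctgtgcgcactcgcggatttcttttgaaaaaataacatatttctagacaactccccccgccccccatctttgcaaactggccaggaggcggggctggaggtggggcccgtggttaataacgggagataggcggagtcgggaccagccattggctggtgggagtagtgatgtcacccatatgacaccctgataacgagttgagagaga

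The Foxa1 window held 1 forkhead match and 3 Sox matches, and the first capital run is 1 forkhead match overlapped at both ends by a Sox match. The Sox4 and Sox11 windows held neither. Among 32851 windows of this length in the table, 3.17% held the forkhead letters, 16.5% the Sox letters and 0.761% both. The table held 31 windows for 22 of the 36 genes, and 1 of these windows (that of Foxa1) had a forkhead match and 12 a Sox match, in 7 genes. Windows of the same gene are not independent, and no share per gene was computed over all genes. A match is a run of letters and not a measured binding site.

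Sox4, a SoxC factor active in progenitor cells of many organs, was the other gene that rose. Its brighter probe set read 1462, 1090, 1644 and 2054 in the wild type and 2738 and 2680 in the mutant. Both mutant arrays were above all wild-type arrays, and wild-type replicate 4 came nearest to them. The means were 1563 ± 401 (SD, n = 4) and 2709 ± 41.0 (SD, n = 2), giving 0.82 ± 0.21 as the log2 difference with its SE (adjusted p = 0.0369 by limma), or 1.77-fold, with a 95% interval of 0.36 to 1.29. The rise did not hold under every setting: it did not pass with no filter (adjusted p = 0.0557), without a variance trend (0.101), without mutant replicate 1 (0.201) or 2 (0.191), or without wild-type replicate 1 (0.0876) or 3 (0.0570), while the difference stayed between 0.66 and 1.09 over these and the other settings that kept this probe set alone.

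The other Sox4 probe set read 480, 255, 784 and 1458 in the wild type and 1456 and 1475 in the mutant. Here wild-type replicate 4 stood level with the mutant arrays, and the groups overlapped. Its difference was 1.23 with an SE of 0.53 (adjusted p = 0.179 by limma), and with the mean of both probe sets Sox4 had 1.03 (adjusted p = 0.101). This probe set passed without wild-type replicate 4 (1.64, adjusted p = 0.0266) and with array weights (1.32, adjusted p = 0.0473). It also passed when both wild-type replicate 2 and replicate 4 were left out (1.23, adjusted p = 0.0136), a setting chosen after seeing the data.

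Sox11, the other SoxC gene measured, acts beside Sox4 in progenitors and in kidney and nervous system development. Its brighter probe set read 1480, 1503, 1542 and 2460 in the wild type and 2145 and 2108 in the mutant. Wild-type replicate 4 was above both mutant arrays, and the other 3 wild-type arrays lay together below them. Its difference was 0.32 with an SE of 0.19 (adjusted p = 0.352 by limma), with a 95% interval of -0.12 to 0.76. It passed once wild-type replicate 4 was left out (0.49, adjusted p = 0.00616), as it did without wild-type replicates 2 and 4 together (0.49, adjusted p = 0.0136), a setting chosen after seeing the data. The second Sox11 probe set overlapped between the groups, with means of 421 ± 57.8 (SD, n = 4) and 448 ± 46.8 (SD, n = 2) and a difference of 0.092 (adjusted p = 0.767).

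**Figure D2:**
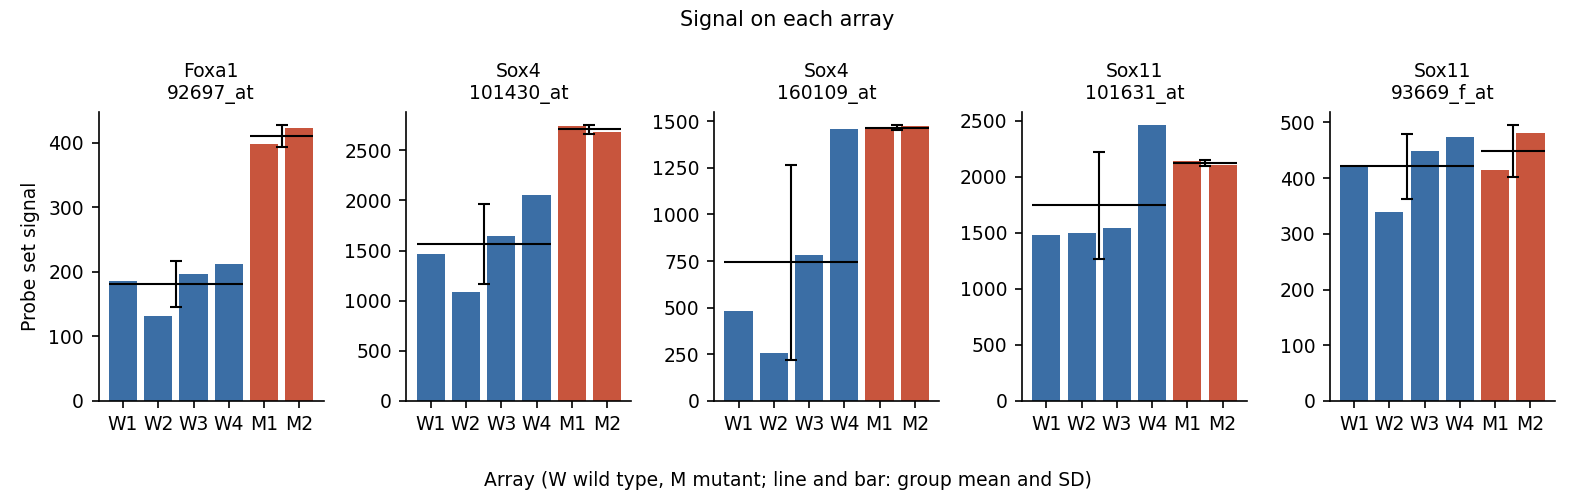
Signal of Foxa1 and of both probe sets of Sox4 and Sox11 on wild-type arrays W1 to W4 and mutant arrays M1 and M2, each axis starting at 0, with horizontal lines at the group means and bars of 1 SD. W4 is the highest wild-type array in all 5 panels, and reaches 2460 for Sox11 where the mutant arrays read 2145 and 2108.

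Wild-type replicate 4 was the highest of the wild-type arrays for 9 of the 20 tested genes (45.0%), and replicate 2 for 7 (35.0%). Over all genes tested these shares were 27.6% and 26.1%. Replicates 1 and 3 were highest for 2 genes each. Replicate 4 was also the lowest for 5 of the 20 (25.0%) and replicate 2 for 6 (30.0%). Over all genes tested they were lowest for 32.6% and 23.8%. The spread among wild-type arrays had a median SD of 0.28 over the 20 genes on the log2 scale, beside 0.181 over all genes tested.

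Of the SoxF genes, which act together in the endothelium of vessels, none passed. Sox7 read 321, 337, 356 and 262 in the wild type and 406 and 408 in the mutant, with both mutant arrays above the wild type and a difference of 0.34 (95% interval -0.02 to 0.71; adjusted p = 0.213). Sox18 read 983, 846, 936 and 1108 against 865 and 909, with a difference of -0.12 (-0.40 to 0.16; adjusted p = 0.602), and its second probe set had 0.08 (adjusted p = 0.749). The groups overlapped at both Sox18 probe sets, whose differences had opposite signs.

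Sox17 gave different values at its 2 probe sets. The brighter read 418, 462, 394 and 564 in the wild type and 454 and 441 in the mutant, a difference of -0.02 (-0.39 to 0.34; adjusted p = 0.944). The other had means of 375 ± 77.0 (SD, n = 4) and 253 ± 54.7 (SD, n = 2). Its difference was -0.53 (-1.04 to -0.03; adjusted p = 0.166 by limma), or -0.68 (adjusted p = 0.0543) without wild-type replicate 2. The interval, which is not adjusted for the number of probe sets, excluded 0, but the adjusted p did not pass. Neither probe set separated the groups.

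Beside the SoxF genes stood a list of 14 measured endothelial markers without them, of which 13 were tested. Of these, 5 fell, 0 rose and 8 missed the threshold (median -0.56), and without mutant replicate 1 the falls were 2. Nos3, the endothelial nitric oxide synthase, fell by 1.76, Cldn5, a claudin of tight junctions, by 0.93, and Emcn, a surface glycoprotein of capillaries and veins, by 0.63. The receptor Eng fell by 0.58 and the adhesion gene Icam2 by 0.56. The 8 that missed the threshold ran from Pecam1 at -1.11 and Flt1 at -0.65, through Tie1 at -0.14, Cdh5 at -0.10, Tek at -0.07 and Kdr at 0.12, to Ets1 at 0.33 and Cd34 at 0.45. Vwf was below the signal filter. The summed signal of the 14 markers ran from 9099 to 9659 in the wild type and from 6934 to 6988 in the mutant, without overlap. This sum follows mostly its brightest markers, Eng, Emcn and Cldn5, which fell, and also adds markers with positive differences. Whether SoxF genes differed from these markers in their change was not tested.

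**Figure D3:**
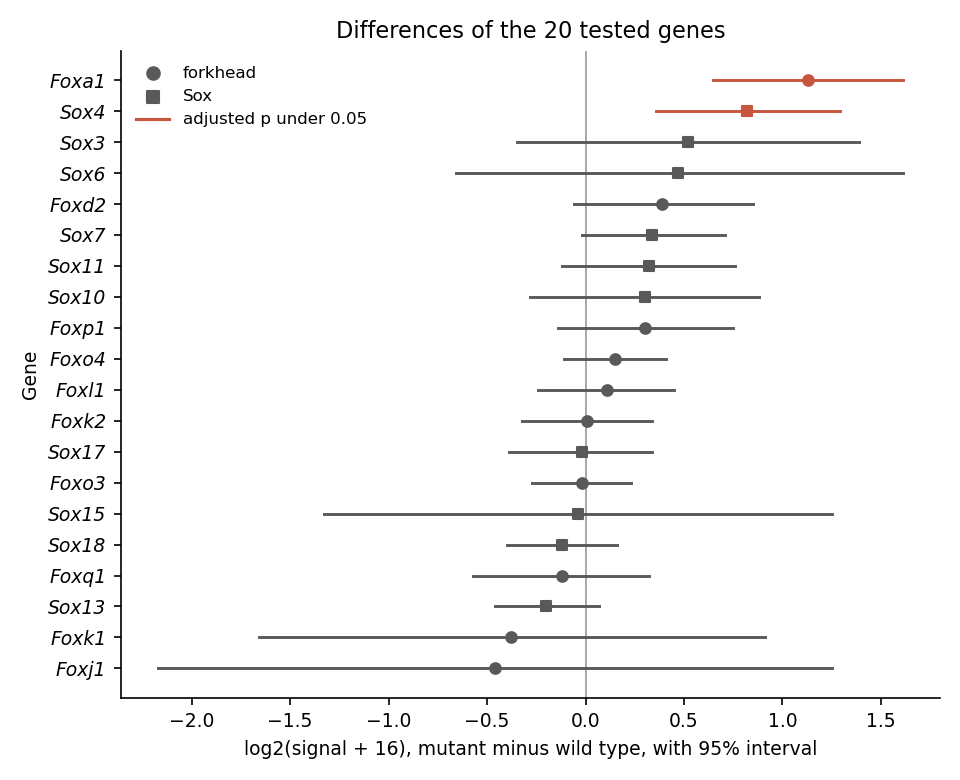
Difference, mutant minus wild type, on the log2(signal + 16) scale for the 20 tested genes, as points (circles forkhead, squares Sox) with 95% intervals from limma over 4 wild-type and 2 mutant arrays. The intervals of Foxa1 (0.65 to 1.61) and Sox4 (0.36 to 1.29) lie above 0 and all others drawn include it. Each gene is drawn at its brightest probe set only.

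The remaining Sox genes did not pass. Sox13, a SoxD factor, read 1048, 942, 1177 and 966 in the wild type and 890 and 902 in the mutant. Neither mutant signal reached the lowest wild-type one, but the difference of -0.20 did not pass (-0.46 to 0.07; adjusted p = 0.328). Its relative Sox6, a regulator of cartilage and red cell development, had 0.47 (-0.66 to 1.61; adjusted p = 0.610) and exceeded the filter level on only 2 arrays. Sox5, the third SoxD gene, was not tested, with signals from 54.0 to 74.7.

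Sox10, which marks neural crest cells and their glia, read 138, 210, 180 and 134 in the wild type and 240 and 174 in the mutant, a difference of 0.30 (-0.28 to 0.88; adjusted p = 0.511). Its second probe set lay near the low end of signals, with means of 20.7 and 16.2. Of 10 measured Schwann cell and neural crest markers, 4 were tested and 0 passed by limma (1 at an unadjusted p under 0.05), while S100b, Gfap, Cnp, Ednrb, Phox2a and Ret were below the filter. In the cartilage list, 4 of 11 measured genes were tested and 0 passed by limma (2 at an unadjusted p under 0.05), with Col2a1 and Acan below the filter.

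Sox3, a SoxB factor of neural progenitors, read 93.8, 189, 92.0 and 77.6 in the wild type and 209 and 122 in the mutant, overlapping (0.52, -0.35 to 1.39; adjusted p = 0.449). Its other 3 probe sets were not tested, the brightest of them with means of 34.3 and 69.1. Sox15, the SoxG factor, read 234 in mutant replicate 1 and 38.1 in replicate 2, on either side of the wild-type range of 76.5 to 139. Its difference of -0.04 therefore averages opposite arrays, and its interval ran from -1.33 to 1.25.

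Other HMG-box genes, which share the DNA-binding domain of Sox factors, were measured for 10 of 20 listed. Of the 9 tested, 0 passed by limma, though 1 passed as higher in 4 other settings, array weights among them, and at an unadjusted p under 0.05 the count was 1, Tcf7l1. The median was -0.02. Tcf7l1 had 0.55 (adjusted p = 0.0785), Lef1 -0.15 and Tcf7l2 -0.02. Tfam was below the filter. Of 17 tested beta-catenin pathway and cofactor genes, 2 fell (Wnt4 and Dkk1) and 1 rose (Sfrp1, a secreted Wnt antagonist, by 0.80), a rise lost without a variance trend and without mutant replicate 2. Wnt4 is the mutated gene itself, and Dkk1 also belongs to the renal vesicle and tubule list. In the list around Ret, the receptor of the ureteric bud, and its ETS factors, 2 of 12 tested genes fell (Dusp6 by 0.78 and Myb by 0.71) and 1 rose (Shc1 by 0.50). Leaving out either mutant array left 1 fall and 0 rises.

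Of the 10 tested forkhead genes, the 9 other than Foxa1 did not pass, and their groups overlapped. Foxd2, a relative of the stromal factor Foxd1, read 304, 512, 338 and 410 in the wild type and 508 and 509 in the mutant. Only wild-type replicate 2 was as high as the mutant arrays. The difference was 0.39 (-0.06 to 0.85; adjusted p = 0.254), and it passed without wild-type replicates 2 and 4 together (0.64, adjusted p = 0.0305), the setting chosen after seeing the data. Foxd1, set aside from the members, rose by 1.75.

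The Foxo genes encode factors that insulin and growth factor signals keep out of the nucleus. Foxo3 read 766, 858, 731 and 758 in the wild type and 789 and 740 in the mutant (-0.02, 95% interval -0.27 to 0.23; adjusted p = 0.923). Foxo4 read 717, 875, 771 and 752 against 891 and 839 (0.15, -0.11 to 0.41; adjusted p = 0.455). The groups overlapped for both, and their intervals allow changes of up to 0.27 and 0.41 on the log2 scale. In the list of Foxo targets and regulators, 20 of 25 measured genes were tested: 4 rose, 2 fell and 14 missed the threshold, the median being 0.06. The transcription factor Klf4 rose by 1.71, Bcl2l11, a promoter of cell death, by 0.67, the cell cycle genes Btg1 by 0.52 and Ccng2 by 0.40, while the coregulator Cited2 fell by 0.78 and the stress gene Gadd45a by 0.69. Leaving out either mutant array left 1 rise and 0 falls, and leaving out wild-type replicate 1 left 2 and 1. Without wild-type replicate 2, or under a replicate block, 2 rises were left.

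Foxp1, a repressor in heart, lung and lymphocyte development, read 524, 336, 509 and 464 in the wild type and 641 and 491 in the mutant at its brighter probe set (0.30, -0.14 to 0.75; adjusted p = 0.379). Its other probe set also overlapped between the groups, with 0.46 (adjusted p = 0.365). Foxk2, a regulator of metabolism, read 510, 550, 544 and 419 against 481 and 530, with a difference of 0.01 (-0.32 to 0.34; adjusted p = 0.982).

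Foxl1, a mesenchymal factor best known from the gut, where hedgehog signals act on it, read 359, 348, 320 and 408 in the wild type and 421 and 355 in the mutant (0.11, -0.24 to 0.45; adjusted p = 0.710). Its relatives Foxf1 and Foxf2 were below the filter, with signals of 7.77 to 59.6 and 2.40 to 13.5. In the hedgehog list, 3 of 12 tested genes rose, the receptor Ptch1 by 1.12, the effector Gli1 by 0.85 and the co-receptor Gas1 by 0.50, and the cell cycle gene Ccnd1 fell by 0.81. The median was 0.25, and without either mutant array, without a variance trend or with a replicate block 1 rise was left.

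**Figure D4:**
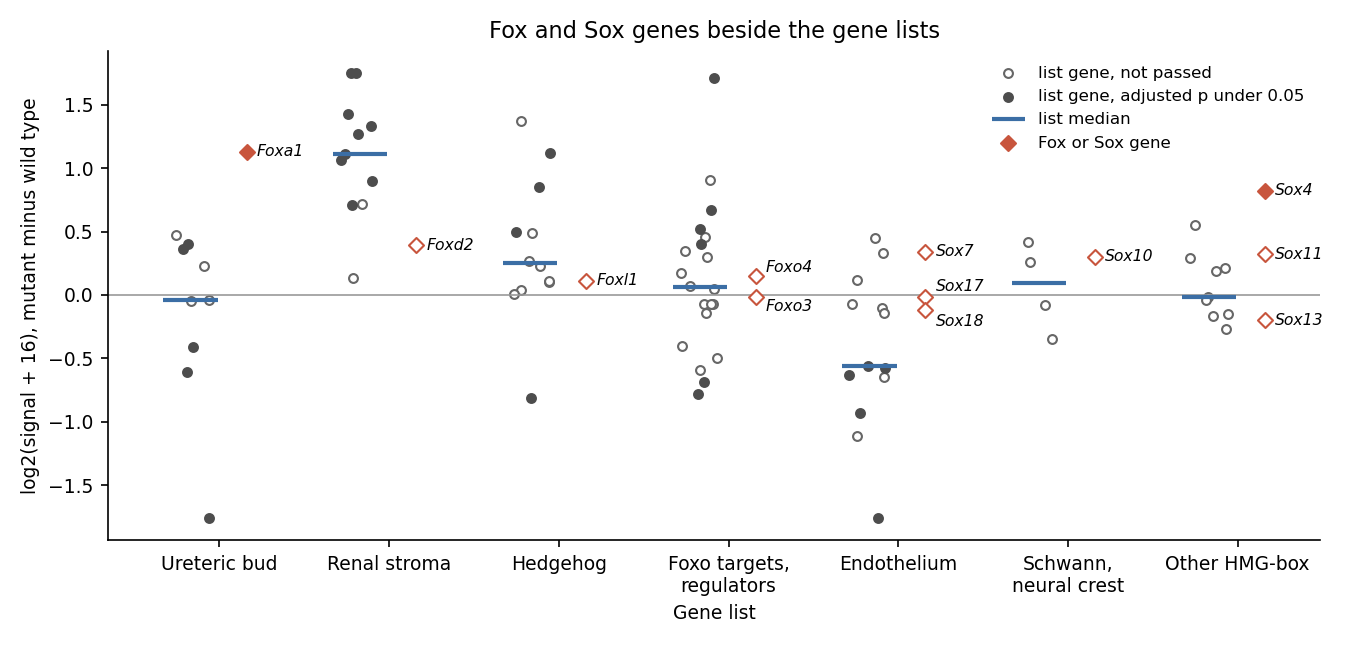
Differences, mutant minus wild type, on the log2(signal + 16) scale for tested genes of 7 lists (circles, filled where limma's adjusted p was under 0.05, blue line at the list median) beside Fox and Sox genes with a known link to each (diamonds). The endothelial median is -0.56 and that of renal stroma 1.11. Sox7, Sox17 and Sox18, each at its brightest probe set, lie between -0.12 and 0.34. The second Sox17 probe set, at -0.53, is not drawn.

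Some forkhead genes varied more within a group than between them. Foxj1, the master regulator of motile cilia, read 34.7, 177, 186 and 192 in the wild type and 221 and 29.1 in the mutant, so 1 array of each group was low. Its difference of -0.46 had an interval of -2.17 to 1.25, and the 4 tested genes of the ciliated epithelium list included 0 that passed by limma (1 at an unadjusted p under 0.05), with Tekt1 below the filter. Foxk1 read 112, 205, 115 and 41.1 against 44.8 and 126, with an interval of -1.66 to 0.91. Foxq1 read 179, 213, 225 and 253 against 196 and 197, and its interval ran from -0.57 to 0.32.

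The 16 untested genes had signals between 2.30 and 114 over all arrays. They were Foxa2, Foxa3, Foxb1, Foxb2, Foxc1, Foxd3, Foxd4, Foxf1, Foxf2, Foxh1, Foxn1, Foxn2, Foxn3, Sox1, Sox2 and Sox5. Foxn3 exceeded the filter level on 1 array, mutant replicate 1, where it read 114, and the other 15 on 0. For Foxa2 the mutant arrays read 32.6 and 28.6, above wild-type signals of 11.5 to 27.6, and for Foxh1 34.8 and 27.6, above 20.1 to 26.2. Sox1 was the third untested gene with both mutant arrays above the wild type, and the other 13 overlapped. Foxc1, a factor of kidney mesenchyme, read from 22.3 to 74.2 in the wild type and 58.8 and 86.8 in the mutant. Its probe set thus gave signals near or below those at which members were tested, which does not show that the gene was silent.

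**Figure D5:**
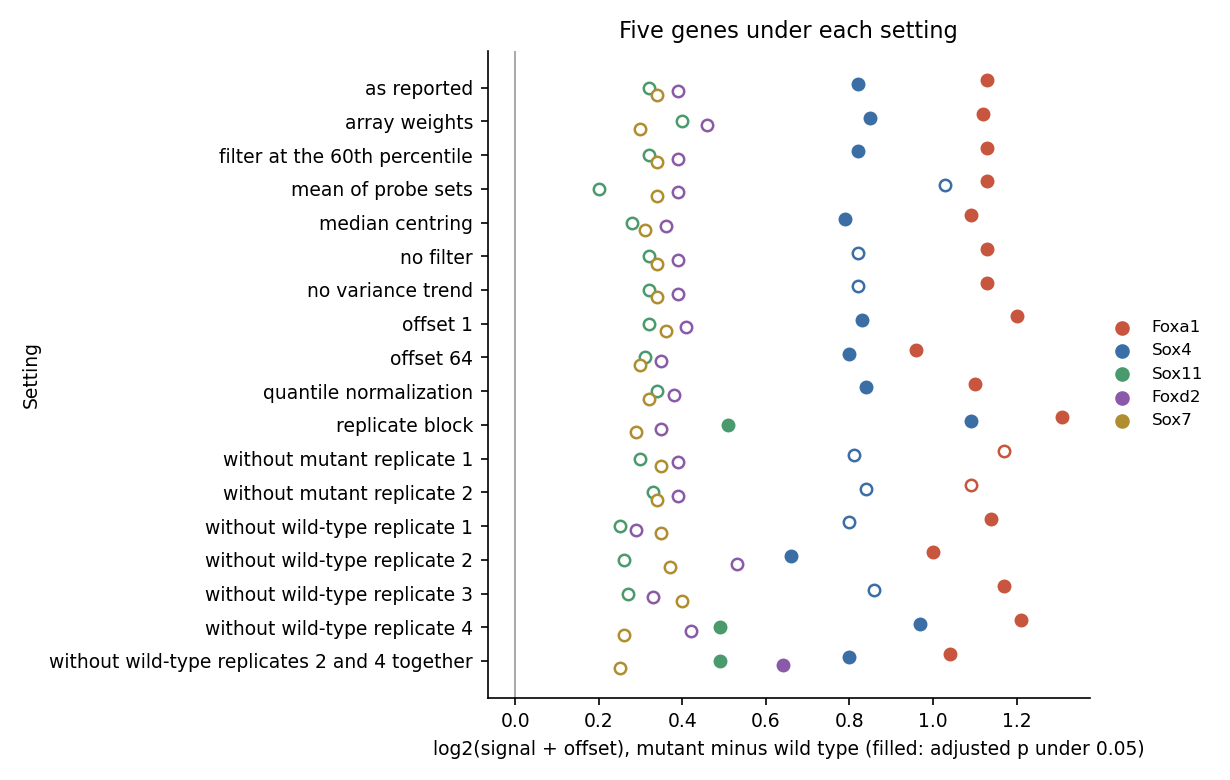
Differences, mutant minus wild type, of Foxa1, Sox4, Sox11, Foxd2 and Sox7 as reported and under each of 17 other settings, with points filled where limma's adjusted p was under 0.05. All 5 genes stay above 0 in every setting shown. Foxa1 is unfilled where either mutant array is left out, and Sox4 there and in 5 more settings.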

How the data were processed

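The authors deposited 1 linear signal (intensity) per probe set and array, from GCOS according to the submitters' processing notes. GCOS is the software that runs Affymetrix scanners, and how it was set was not given in the labels. The arrays had similar levels by their median signals, given below, and whether the values had been scaled to a common level was not tested. The 66 control probe sets among 12488 were left out. The others were named from the platform annotation and updated by gene identifier to RefSeq (GRCm38.p6): 10833 had 1 symbol, 396 had several and 1193 had none here. RefSeq held 10817 of the 10833.

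Signals were analysed as log2(signal + 16) without further normalization. The median signal per array ran from 172.7 to 191.04, and array-to-array correlations from 0.918 to 0.969. The filter kept 7981 probe sets and dropped 4441. The test was limma 3.58.1 under R 4.3.3 (lmFit, eBayes with a variance trend, no covariate), tested on simulated data. Intervals are limma's, at 95%. The number of arrays limits the precision, and p-values measure the spread between pools. An exact permutation of 4 against 2 arrays could not go below 0.0667.

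The members and the 17 gene lists were chosen with earlier results of these data known. All tested members were named, with all values for those that passed and the 8 with the highest means, and up to 3 passing genes of a list, with others named after their values were seen. Alternatives covered offset, filter, normalization, probe set, variance model, array weights, replicate block and left-out arrays.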

Additional observations from a re-analysis of the deposited data

Results flagged for a closer look

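In 7 of 50 probe sets examined (the 36 members, their 13 other probe sets and Wnt4), 1 of the 4 wild-type arrays stood far from the other 3, with a gap to its neighbour, as a share of the group's log2 range, above Dixon's 95% critical value. Chance flags about 1 in 20 such groups. The brighter Sox11 probe set had a gap share of 0.920, with wild-type replicate 4 high at 2460, and this is the array without which Sox11 passed. Foxj1 had 0.947, with replicate 1 low at 34.7. Foxa3 had 0.948 (replicate 1 high), Foxn3 0.983 at its brighter (replicate 4 high) and 0.852 at its other probe set (replicate 3 high), Foxk2 0.894 at its second probe set (replicate 1 high) and Sox6 0.880 at its second probe set (replicate 2 high), all at probe sets below the signal filter.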

How the results depend on the processing

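Over 17 alternatives, 0 members were lower in any. The count of higher members was 1 with the mean of probe sets, with no filter and with no variance trend, 4 without wild-type replicates 2 and 4 together (chosen after seeing the data), and 0 to 3 with 1 array left out. Over all probe sets, lower and higher calls were 488 and 371. They were 738 and 613 with array weights and 188 to 553 and 114 to 448 with 1 array left out (without mutant replicate 1, 198 and 133; without mutant replicate 2, 188 and 114; without wild-type replicate 1, 320 lower). Some members changed sign between settings, and those that did passed in none. With 1 array left out the ranges were -1.66 to 0.74 for Foxj1, -0.99 to 0.24 for Foxk1, -0.078 to 0.075 for Foxk2, -0.01 to 0.23 for Foxl1, -0.069 to 0.024 for Foxo3, -1.14 to 1.07 for Sox15 and -0.091 to 0.076 for Sox17. At second probe sets they were -0.011 to 0.19 for Sox11 and -0.019 to 0.19 for Sox18. Array weights gave -0.028 for Foxk2 and 0.039 for Sox17, median centring and quantile normalization gave -0.029 and -0.0087 for Foxk2, and an offset of 64 gave 0.052 for Sox15. Without wild-type replicates 2 and 4 together, Foxj1 had 0.031, Foxk2 -0.057, Foxo3 0.03 and Sox17 0.14. The causes were not tested.

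Replicate numbers 1 and 2 occur in both groups. Deviations of same-numbered arrays correlated at 0.00305 and -0.0153. With 2 mutant arrays their deviations mirror each other, so this check cannot decide whether the numbers pair the samples. The main fit used no pairing. Replicates 3 and 4 occur only in the wild type. With the replicate number as a block, the group difference therefore rests on replicates 1 and 2 of each group alone. Under this block, 3 members passed by limma, Foxa1, Sox4 and Sox11 (0.51, adjusted p = 0.0284). The second Sox4 probe set passed with 2.02 (adjusted p = 0.000813), and 362 probe sets were lower and 341 higher. Wild-type replicate 4, which was high for Sox11 and this Sox4 probe set, thus had no weight in these differences. The block gave Foxj1 0.065, Foxk2 -0.065, Foxq1 0.0098 and Sox17 0.024. Low signals limit what could be tested in 16 of the 36 genes.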
